A study of Mus musculus with 40 samples.

Results

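The VPS13 and ATG2 proteins are long, rod-shaped lipid transfer proteins, and their genes Vps13a, Vps13b, Vps13c, Vps13d, Atg2a and Atg2b were described in mouse cortex after repeated head impact. The members were all rows of the deposited transcript table that carried one of the 6 gene symbols. These were 7 RefSeq transcripts of 6831, and 6 genes of 5863 gene symbols. Vps13d had 2 rows and every other gene had 1. The set was chosen by a measured value: Vps13a was among the transcripts with the smallest p-values when saline-treated impacted mice were compared with saline-treated sham mice. For the 6 genes, that comparison is therefore given as a description, without a test.

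Bulk RNA-seq was carried out on cortex of male C57BL/6 mice aged 12 weeks. Mice received an intraperitoneal injection of saline or memantine, a blocker of the NMDA-type glutamate receptor, each day 1 h before either high-frequency head impact (HF-HI) or a sham procedure, and RNA was taken 24 h after injury. There were thus 4 groups of 10 libraries, sham and HF-HI mice under saline (saline sham, saline HF-HI) and the same procedures under memantine (memantine sham, memantine HF-HI). All groups shared the strain, the age and the daily injection, and the sham mice were handled and anaesthetised without impacts. The labels name no genetic alteration, and the mice were of 1 sex and 1 strain.

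VPS13 and ATG2 proteins act as bridges at membrane contact sites, where a hydrophobic groove along the protein lets lipids pass in bulk from the endoplasmic reticulum to another organelle. Scramblases at each end spread the arriving lipids between the leaflets of the membrane. VPS13A works at contacts of the endoplasmic reticulum with mitochondria, lipid droplets and the plasma membrane and pairs with the scramblase XK, VPS13B is found at the Golgi, VPS13C joins the endoplasmic reticulum to late endosomes and lysosomes, and VPS13D is needed for normal mitochondria and peroxisomes. ATG2A and ATG2B feed lipids into the growing autophagosome together with the scramblase ATG9A. In people, loss of the VPS13 proteins causes neurological disease, including chorea-acanthocytosis for VPS13A and a form of early-onset parkinsonism for VPS13C.

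In GRCm38.p6, the build that corresponds to mm10, Vps13a lies on chromosome 19 (16615366 to 16781071) and Atg2a on the same chromosome (6241478 to 6262304). Vps13b lies on chromosome 15 (35371118 to 35931229), Vps13c on chromosome 9 (67840316 to 67997744), Vps13d on chromosome 4 (144871045 to 145195037) and Atg2b on chromosome 12 (105613539 to 105685297). RefSeq promoter windows of GRCm38.p6, which hold 250 bases before and 50 bases after a start site, were matched for Vps13a, Vps13d, Atg2a and Atg2b. Vps13b and Vps13c were not matched. The windows of Vps13a and Atg2a are shown because these members stood at the ends of the set in base composition and moved in opposite directions between libraries, as described further on. Both are written 5′ to 3′ on the strand of the gene, and capitals mark GC boxes (GGGCGG) and CCAAT boxes on either strand. The matches did not overlap.
Vps13a, chr19:16780884-16781183, minus strand: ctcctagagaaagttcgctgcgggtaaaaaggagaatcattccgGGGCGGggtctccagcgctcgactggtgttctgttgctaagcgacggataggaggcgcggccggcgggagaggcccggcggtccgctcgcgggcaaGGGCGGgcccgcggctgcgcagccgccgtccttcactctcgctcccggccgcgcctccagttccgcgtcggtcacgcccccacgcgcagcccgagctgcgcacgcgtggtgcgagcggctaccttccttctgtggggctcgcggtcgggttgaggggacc
Atg2a, chr19:6241418-6241717, plus strand: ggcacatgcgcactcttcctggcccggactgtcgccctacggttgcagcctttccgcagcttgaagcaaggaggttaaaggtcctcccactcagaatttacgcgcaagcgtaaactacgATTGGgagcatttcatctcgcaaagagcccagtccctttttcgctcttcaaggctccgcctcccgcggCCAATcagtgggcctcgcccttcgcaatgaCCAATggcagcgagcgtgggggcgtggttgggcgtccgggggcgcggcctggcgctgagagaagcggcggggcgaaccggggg
The Vps13a window had a GC content of 71% with 42 CG dinucleotides and 2 GC boxes, and the Atg2a window had a GC content of 63.3% with 28 CG dinucleotides and 3 CCAAT boxes. The median over all 32851 windows was 52.7% GC and 7 CG dinucleotides. A GC box was present in 35.7% of all windows and a CCAAT box in 37.4%. CACGTG, TGACGTCA and TATAAA were in neither of the printed windows, and in 7.15%, 1.79% and 13.6% of all windows. These matches are descriptions of the letters and were not tested as sites.

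Values are normalised counts, that is, read counts divided by a library size factor, recovered from the deposited variance-stabilised values. The libraries summed to between 13322404 and 17529644 reads over the table. Of 12 markers of cortical excitatory neurons 11 were in the table, all 9 astrocyte markers and all 8 oligodendrocyte markers were present, and none of 5 blood markers was. Markers of striatum, a neighbouring region that can enter a cortical dissection, were present for 10 of 15 symbols, and their summed counts ranged from 38388 to 61485 in saline sham, 38004 to 53344 in saline HF-HI, 40470 to 60838 in memantine sham and 35312 to 55696 in memantine HF-HI. In whole-cortex RNA, fewer cells of a type and less RNA per cell cannot be told apart. The labels do not state that each library came from a separate mouse, so p-values measure the spread between these libraries only.

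Per kilobase of transcript, Vps13a was the most abundant member over all 40 libraries and Atg2a the least. Normalised counts per kb were 504 ± 32.2 for Vps13a (mean ± SD over 40 libraries), 476 ± 11.5 for both rows of Vps13d together, 455 ± 13.5 for Vps13c, 413 ± 11.1 for Vps13b, 396 ± 12.3 for Atg2b and 135 ± 13.8 for Atg2a. The median over 6698 transcripts with a known length was 342, so 5 of the 6 genes were above it and Atg2a was at the 8.18th percentile. Neighbours in this order overlapped in the range of their libraries, except for Atg2b and Atg2a: the lowest Atg2b library was at 373 per kb and the highest Atg2a library at 162 per kb. In saline sham the first 2 places were exchanged, with 470 per kb for Vps13d and 467 per kb for Vps13a. All members were long, from 6371 bases for Atg2a to 15849 bases for Vps13d, against a median of 4008.5 bases, which spreads each level over many reads.

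**Figure D1:**
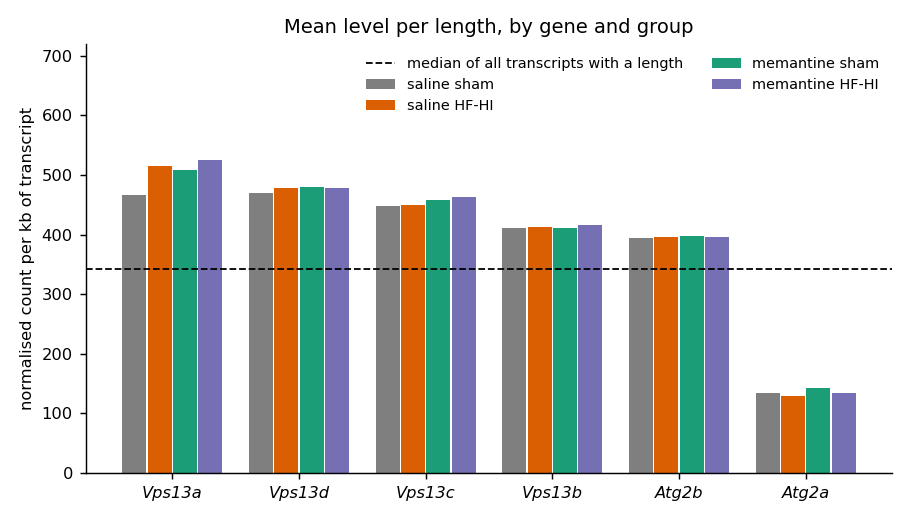
Mean normalised count per kb of transcript (y axis, starting at 0) for each gene (x axis) in the 4 groups (coloured bars, n = 10 libraries each), with the median of 6698 transcripts as a dashed line. The bars of Vps13a, Vps13d, Vps13c, Vps13b and Atg2b stand above the line at 342 per kb and those of Atg2a below it, and the saline sham bar of Vps13a, at 467 per kb, is the lowest of that gene.

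Vps13a (NM_173028) had its lowest level in saline sham, and the other 3 groups lay close together above it. In saline sham the 10 libraries ran from 4761.54 to 5508.16 normalised counts with a median of 5001.12. In saline HF-HI the lowest, median and highest were 5245.36, 5551.31 and 6072.5. All 10 saline HF-HI libraries were above the saline sham mean and 6 were above its highest library. The corresponding values were 5038.41, 5527.31 and 6016.45 in memantine sham and 5264.89, 5731.81 and 6043.58 in memantine HF-HI. These 2 groups overlapped over most of their range, and both reached above the highest saline sham library.

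The group means of Vps13a under saline were 5064.5 ± 249.8 for sham and 5590.4 ± 259.4 for HF-HI, and under memantine 5518.4 ± 274.1 for sham and 5685.7 ± 267.2 for HF-HI (SD, n = 10 each). Saline HF-HI was 10.4% above saline sham, and memantine sham was 8.96% above saline sham with 9 of 10 libraries above its mean. Memantine HF-HI was 1.70% above saline HF-HI. Because the first of these contrasts chose the gene and the others share its libraries, none is given a test. The 1 transcript of 7 under an unadjusted limma p of 0.05 in the saline contrast was Vps13a itself, beside 9.53% of all 6831 transcripts. That count follows from how the gene was chosen.

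The contrast that shares no library with the one that chose Vps13a is memantine HF-HI against memantine sham, and there Vps13a did not pass the test. Its count was 3.04% higher after impact, with a 95% interval from -1.32% to 7.60% (n = 10 each, unadjusted limma p = 0.168, adjusted p = 0.967, permutation p = 0.182), and 7 of 10 memantine HF-HI libraries were above the memantine sham mean. The impact effect on the log2 scale of counts was 0.14 under saline and 0.04 under memantine, a difference of -0.10 ± 0.04 (SE), which contains the contrast that chose the gene and is not tested.

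Striatum markers, and most interneuron markers, were lower in saline HF-HI than in saline sham. With impact under saline, 8 of the 15 striatum marker transcripts were lower at an unadjusted p under 0.05, beside 4.95% of all transcripts, and none was higher, and their median log2 change was -0.20. Of the 8 interneuron marker transcripts, 5 were lower and 1 was higher at the same threshold, with a median log2 change of -0.12. Across 40 libraries the correlation of Vps13a with the summed striatum markers was r = -0.377, and -0.346 with group means removed. With the striatum markers as a covariate, the fitted saline impact difference in Vps13a on the deposited scale was 0.08, against 0.10 without it. The mean summed striatum markers were 51456 in saline sham and 44710 in saline HF-HI, but 50864 in memantine sham, where Vps13a was also above saline sham. The memantine sham difference in Vps13a from saline sham was 0.087 with the covariate and 0.088 without it. Beyond this fit, the part of these markers in the result was not tested.

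**Figure D2:**
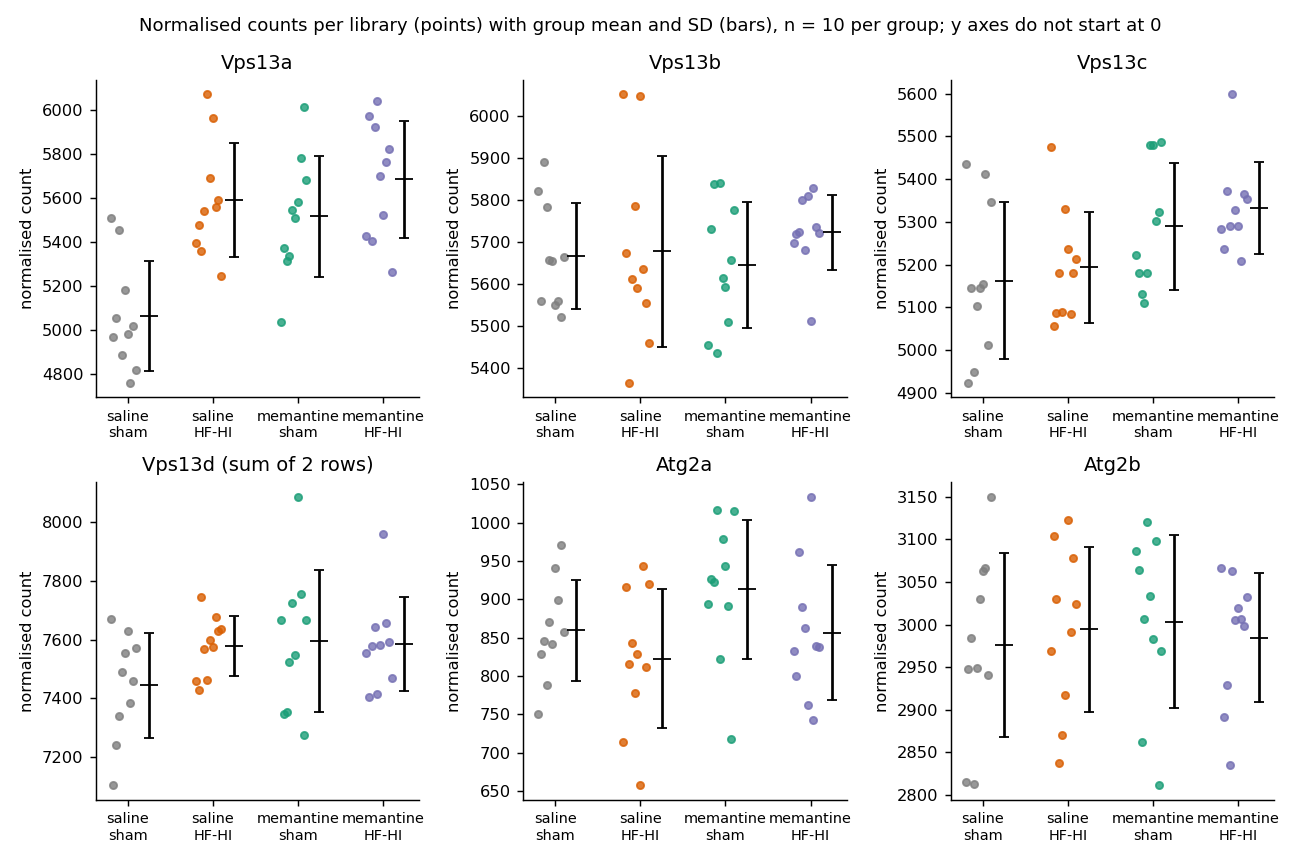
Normalised counts (y axes, which do not start at 0) of each gene in the 4 groups (x axis), with 1 point per library and the mean and SD of 10 libraries beside them. Vps13a is lowest in saline sham, with a mean of 5064.5, while the clouds of the other genes overlap between all 4 groups.

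The other VPS13 genes differed less between groups. Vps13b (NM_177151), the Golgi member, ran from 5521.79 to 5889.47 normalised counts in saline sham with a median of 5656.56, from 5364.94 to 6051.65 in saline HF-HI (median 5623.8), from 5436.53 to 5839.96 in memantine sham (median 5635.69) and from 5511.61 to 5828.89 in memantine HF-HI (median 5723.15). The groups overlapped almost completely. Its change with impact was 0.159% under saline, described only, and 1.40% under memantine (95% interval -1.18% to 4.04%, unadjusted limma p = 0.288, n = 10 each). Memantine sham differed from saline sham by -0.379% (-2.91% to 2.22%, permutation p = 0.737). These intervals are narrow enough to leave out changes of 5% in either direction.

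Vps13c (NM_177184), the late endosome and lysosome member, was higher in the memantine groups than in the saline groups by a small margin. It ran from 4923.07 to 5434.31 normalised counts in saline sham (median 5144.76) and from 5056.62 to 5475.39 in saline HF-HI (median 5180.08). The lowest, median and highest were 5109.61, 5262.14 and 5486.77 in memantine sham and 5208.47, 5309.3 and 5598.72 in memantine HF-HI. All 10 memantine HF-HI libraries were above the saline HF-HI mean, but only 1 was above its highest library.

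For memantine HF-HI against saline HF-HI the Vps13c count was 2.68% higher (95% interval 0.0554% to 5.38%, unadjusted limma p = 0.0477, adjusted p = 0.9995, n = 10 each, permutation p = 0.0165). It was the 1 transcript of 7 called at the unadjusted threshold in this contrast, beside 3.91% of all transcripts, and it failed the correction. Leaving out memantine HF-HI replicate 5, the highest library, gave p = 0.112, and the unadjusted call was lost in 19 of the 40 fits that left out 1 library. Memantine sham was 2.48% above saline sham (-0.142% to 5.17%, p = 0.0667), and impact changed Vps13c by 0.826% under memantine (-1.75% to 3.47%, p = 0.529).

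Vps13d, the mitochondrial and peroxisomal member, had the lowest coefficient of variation of the 6 genes over 40 libraries, 2.41%, when its 2 rows were added. The sum ran from 7103.6 to 7671.92 normalised counts in saline sham (median 7473.87), from 7428.71 to 7746.57 in saline HF-HI (median 7586.74), from 7274.92 to 8087.56 in memantine sham (median 7607.36) and from 7403.8 to 7961.44 in memantine HF-HI (median 7579.74). All 4 groups overlapped. The log2 change of the sum was 0.03 with impact under saline, described only, and -0.0014 ± 0.0162 (SE) under memantine (limma p = 0.931, permutation p = 0.920), and memantine sham was 0.03 ± 0.02 above saline sham (limma p = 0.0846, permutation p = 0.131).

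The division of the Vps13d reads between the 2 rows was not constant. NM_001276502 was between 1597.77 and 4353.4 normalised counts in 32 libraries and between 237.925 and 732.247 in the other 8, and 7 of these 8 were at or below 280.01. None of the 8 low libraries was a saline sham library, 2 came from saline HF-HI, 4 from memantine sham and 2 from memantine HF-HI. In them NM_001276465 was between 7014.32 and 7849.63, against 3114.54 to 5974.64 in the other 32, so the sum was kept within 7346.6 and 8087.56. The share of NM_001276502 in the sum thus ran from 2.94% to 58.3%. Both rows were matched by the annotation to the same 15849-base transcript, so how they differ is not told here. Counts of 2 rows of 1 gene also depend on how shared reads were apportioned between them, which was not tested. Over the 3 contrasts without the gene-choosing one, neither row passed the test (unadjusted limma p between 0.108 and 0.855).

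**Figure D3:**
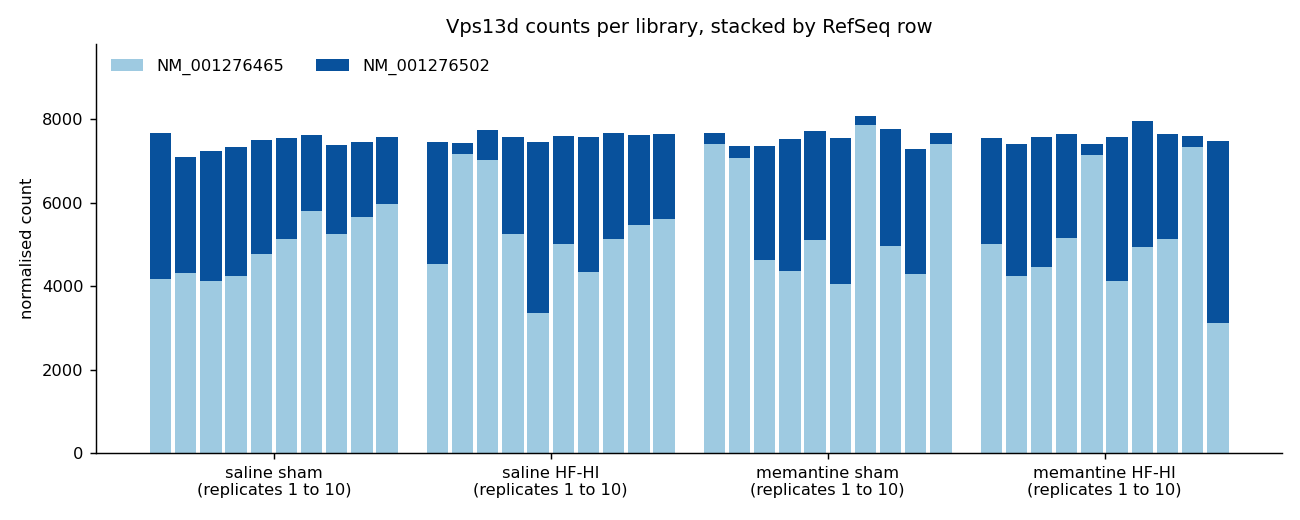
Normalised counts of Vps13d (y axis, starting at 0) in each of 40 libraries (x axis, replicates 1 to 10 from left to right within each group), stacked by RefSeq row. The total height stays between 7103.6 and 8087.56, while the dark upper section, NM_001276502, nearly vanishes in 8 libraries, none of them saline sham.

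The 2 autophagy members behaved differently from each other in their spread. Atg2a (NM_194348) ran from 750.983 to 971.316 normalised counts in saline sham (median 852.06), from 657.514 to 943.628 in saline HF-HI (median 822.285), from 717.441 to 1016.21 in memantine sham (median 924.87) and from 742.972 to 1034.26 in memantine HF-HI (median 838.237). The groups overlapped widely, with a coefficient of variation over 40 libraries of 10.2%. Impact changed Atg2a by -6.16% under memantine (95% interval -14.2% to 2.66%, unadjusted limma p = 0.151, permutation p = 0.176, n = 10 each), and 8 of 10 memantine HF-HI libraries were below the memantine sham mean. Without memantine sham replicate 9, the lowest library of its group, the unadjusted p was 0.0378 and the adjusted p 0.620. The saline difference, described only, was a median of 822.285 after impact against 852.06 in sham.

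Atg2b (NM_029654), the paralogue of Atg2a, was steady. Its lowest, median and highest normalised counts were 2812.01, 2966.65 and 3150.5 in saline sham, 2837.65, 3007.42 and 3122.4 in saline HF-HI, 2810.96, 3019.9 and 3121.12 in memantine sham and 2834.9, 3006.34 and 3066.14 in memantine HF-HI. All 4 groups overlapped over nearly their whole range. Impact under memantine changed it by -0.596% (95% interval -3.57% to 2.47%, p = 0.690), and its coefficient of variation over 40 libraries was 3.11%.

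**Figure D4:**
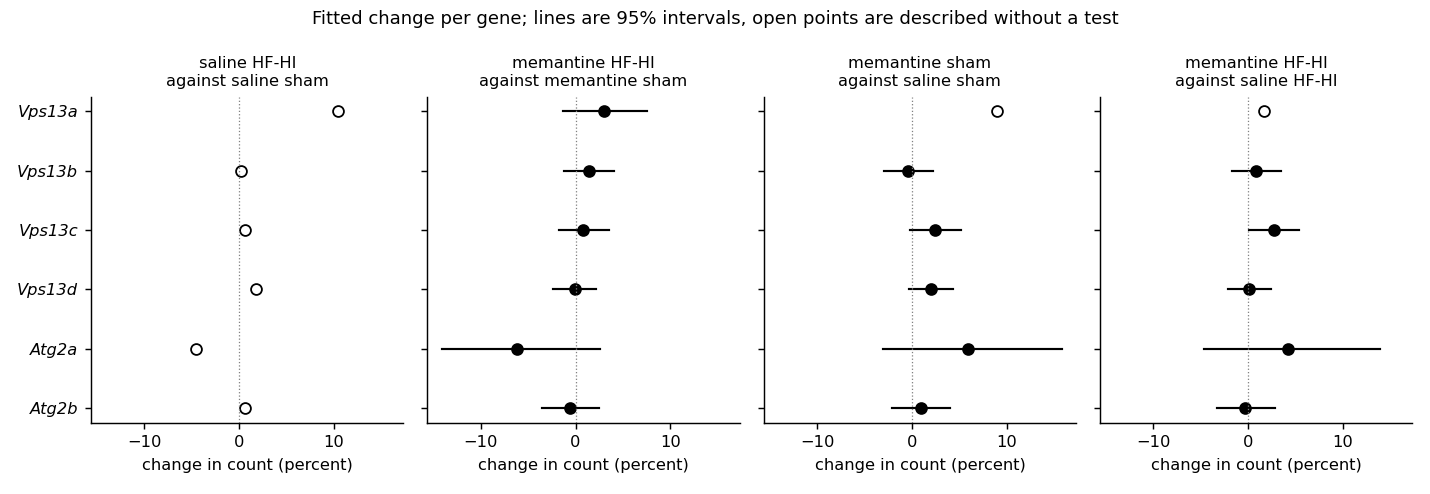
Fitted change in count in percent (x axis) for each gene (y axis) in 4 contrasts (panels). Filled points carry a 95% interval, and open points are described without a test: all genes in the left panel, the contrast that chose Vps13a, and Vps13a alone in the 2 right panels, which share libraries with it. The Vps13a points are at 10.4%, 3.04%, 8.96% and 1.70% from the left panel to the right, and of the intervals shown only that of Vps13c in the right panel leaves out 0.

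Counted over the set, limma called 0 of 7 member transcripts at an unadjusted p under 0.05 in memantine HF-HI against memantine sham, beside 4.61% of all transcripts, and none at an adjusted p under 0.1, beside 0.0146%. With library weights the count was 1, Atg2a (p = 0.0361). In memantine sham against saline sham, where Vps13a is not tested, limma called 0 of the 6 other member transcripts at an unadjusted p under 0.05, beside 7.51% of all transcripts. In the interaction of impact and drug, where Vps13a is likewise not tested, 0 of the 6 others were called, beside 3.73%, with unadjusted p-values between 0.203 and 0.911.

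The other bridge-like lipid transfer proteins showed a single unadjusted call, with impact under memantine, where 4.61% of all transcripts were called. Over the 5 contrasts this share ran from 3.73% to 9.53%. Of 8 listed symbols, current and older names of the same 4 genes, 4 were in the table, each with 1 transcript. 4932438A13Rik, now called Bltp1, was 9264.26 ± 326.428 normalised counts in memantine sham against 9648.22 ± 229.774 in memantine HF-HI (n = 10 each, log2 change 0.06 ± 0.02 SE, unadjusted limma p = 0.00525, adjusted p = 0.896). In saline sham and saline HF-HI the same gene was at 9487.77 ± 305.259 and 9655.24 ± 267.706, with p = 0.209. Uhrf1bp1, 2610507B11Rik and Uhrf1bp1l had p-values above 0.05 in every contrast, and the median log2 change of the 4 was 0.03 with impact under saline and 0.0096 under memantine, against 0.00021 and -0.00056 over all transcripts.

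Partners and scramblases, the proteins that anchor the bridges or move lipids between leaflets, were represented by 25 transcripts of 21 symbols out of 27 listed. With impact under saline 1 was higher and 0 were lower at an unadjusted p under 0.05, beside 9.53% of all transcripts in either direction. This was Stx12, an endosomal SNARE, at 1937.25 ± 91.0863 in saline sham and 2023.34 ± 43.8967 in saline HF-HI (p = 0.00992, adjusted p = 0.370). With impact under memantine 1 was higher and none lower, beside 4.61% of all transcripts. This was Xkr4, a relative of XK, at 1328.07 ± 45.6682 and 1412.35 ± 103.142 (p = 0.00931, adjusted p = 0.967). In memantine sham against saline sham 3 of the 25 were lower and none higher, beside 7.51% of all transcripts called in either direction. Vapa, the endoplasmic reticulum anchor that VPS13 proteins bind, was at 2027.44 ± 55.6309 in saline sham and 1916.46 ± 47.8922 in memantine sham (log2 change -0.08 ± 0.02 SE, p = 0.000612, adjusted p = 0.281), and Rmdn3, a mitochondrial tether, at 855.929 ± 38.1186 and 809.672 ± 35.9655 (p = 0.0326, adjusted p = 0.635). The median log2 change of the list was -0.0038 with impact under saline and -0.0059 under memantine, against 0.00021 and -0.00056 over all transcripts.

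Other contact-site lipid transfer genes, which carry single lipids such as sterols and phosphoinositides, had 30 transcripts of 24 symbols out of 33 listed. With impact under saline 1 was higher and 0 were lower at an unadjusted p under 0.05, beside 9.53% of all transcripts in either direction. With impact under memantine 1 was higher and 1 lower, beside 4.61%. Between the impacted groups 0 were higher and 1 was lower, beside 3.91%. Osbpl6, an oxysterol-binding protein relative, was at 1741.38 ± 175.297 in saline sham and 1915.74 ± 123.509 in saline HF-HI (p = 0.0341, adjusted p = 0.489). It was at 1764.89 ± 232.72 in memantine sham against 1956.71 ± 174.897 in memantine HF-HI (p = 0.0210, adjusted p = 0.967). Osbpl6 was named for its small unadjusted p in these contrasts, so the like direction follows in part from that choice. Tex2 was the 1 lower transcript of the list with impact under memantine, at 2523 ± 82.2333 in memantine sham against 2430.21 ± 82.5216 in memantine HF-HI (p = 0.0163, adjusted p = 0.967). It was also the 1 lower transcript when memantine HF-HI was compared with saline HF-HI, where it was at 2546.28 ± 74.9686 (p = 0.00329, adjusted p = 0.9995). The median log2 change of the list was 0.012 with impact under saline and 0.0050 under memantine.

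Core autophagy genes, the machinery in which ATG2 works, had 38 transcripts of 33 symbols out of 45 listed. With impact under saline 1 was higher and 1 lower at an unadjusted p under 0.05, beside 9.53% of all transcripts in either direction: Ulk2, a kinase that starts autophagy (2866.05 ± 95.7721 in saline sham, 2974.77 ± 119.067 in saline HF-HI, p = 0.0326), and Atg12, a ubiquitin-like conjugation factor (1033.27 ± 43.9553 and 979.231 ± 40.3185, p = 0.0221). In memantine sham against saline sham 3 of the 38 were higher and 3 lower, beside 7.51% of all transcripts. Ulk2 was at 3057.23 ± 64.8691 in memantine sham (p = 0.000392, adjusted p = 0.281), above saline sham as in the impact contrast that shares those sham libraries. With impact under memantine 1 was higher and none lower, beside 4.61%. Between the impacted groups 1 was higher and 1 lower, beside 3.91%. The higher 1 was Ulk1, the paralogue of Ulk2, at 678.867 ± 198.251 in saline HF-HI and 946.314 ± 202.046 in memantine HF-HI (log2 change 0.50 ± 0.18 SE, p = 0.00722, adjusted p = 0.9995). Sqstm1, an autophagy receptor with 2 rows in the table, was lower in 1 of them, at 1109.09 ± 179.886 and 954.673 ± 170.962 (p = 0.0267, adjusted p = 0.9995). No transcript of the 4 lists reached an adjusted p under 0.1 in any contrast, beside 0.205% of all transcripts for impact under saline, 0.0146% for impact under memantine and 0.0293% for memantine sham against saline sham. The median log2 change of the autophagy list was between -0.0059 and 0.013 over the 5 contrasts.

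Members also varied between libraries of the same group, and for Atg2a, Vps13b and Vps13a part of that spread went with a slope of the library on GC content. The Vps13a transcript had a GC content of 40.1%, at the 5.54th percentile of 6698 transcripts, and the Atg2a transcript 60.0%, at the 96.3rd percentile. Vps13c and Vps13b were at 46.1% and 46.2%, Vps13d at 49.2% and Atg2b at 50.3%, against a median of 49.1%. For each library, the slope over transcripts of the deposited value, taken relative to the transcript's mean, on GC percent was computed. The slope ran from -0.046 to 0.044 per 10 points of GC in saline sham, -0.071 to 0.026 in saline HF-HI, -0.052 to 0.061 in memantine sham and -0.029 to 0.047 in memantine HF-HI, so it varied within every group.

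Over the 40 libraries with group means removed, Atg2a went with the GC slope at r = 0.858 (Spearman's rho = 0.791), and at 0.799 without the 2 libraries farthest from the median. For Vps13b r was -0.589 (rho = -0.602, and -0.559 without the 2 farthest), and for Vps13a it was -0.466 (rho = -0.425), weakening to -0.332 without them. Vps13c, Vps13d and Atg2b were between -0.175 and 0.220, so Vps13c differed from Vps13b although their GC contents were nearly the same. Between members, Vps13a went with Vps13b at r = 0.383 (rho = 0.383) and against Atg2a at -0.471 (rho = -0.438), while Vps13b and Atg2a were at -0.566 (rho = -0.498). Without the 2 farthest libraries these 3 values were 0.369, -0.345 and -0.437. These 6 slope and 15 pairwise correlations are descriptions over libraries that share depth and composition effects, and no p-value is given.

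**Figure D5:**
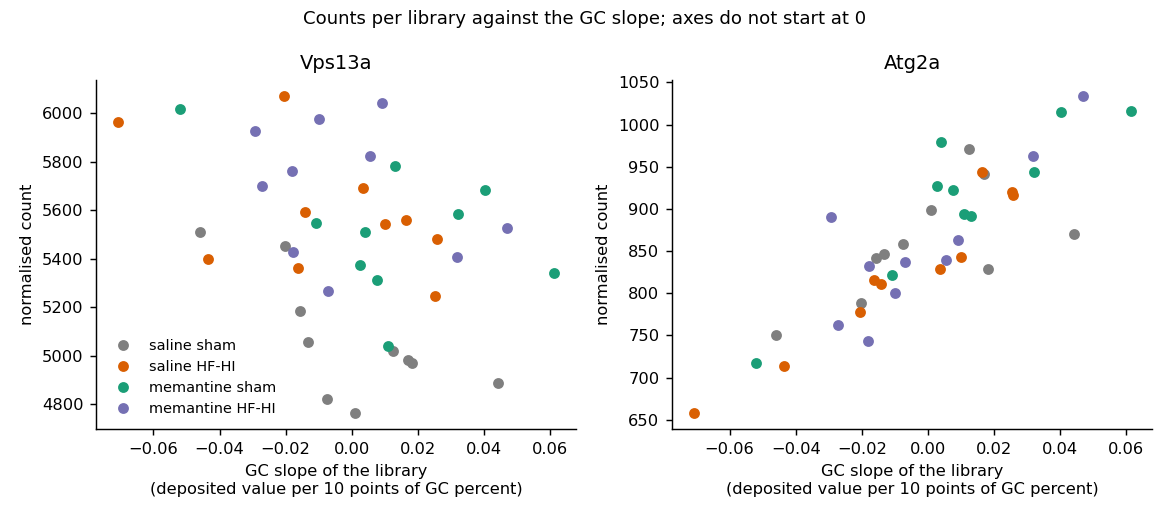
Normalised count (y axes, not starting at 0) against the GC slope of the library (x axis, deposited value per 10 points of GC percent) for Vps13a on the left and Atg2a on the right, with 1 point for each of 40 libraries coloured by group. With group means removed, r was 0.858 for Atg2a and -0.466 for Vps13a. The saline sham points of Vps13a, which belong to the contrast that chose the gene, lie mostly below those of the other groups.

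A fit with the GC slope as a covariate was chosen after the data were seen. In it the saline impact difference of Vps13a on the deposited scale was 0.095, against 0.101 without the covariate. The memantine impact difference of Vps13a was 0.021 (unadjusted limma p = 0.306), against 0.031 without it. The Atg2a difference with impact under memantine was then -0.014, against -0.035 without the covariate. Over transcripts with a GC content under 40%, the median log2 change in counts with impact was 0.012 under saline and 0.016 under memantine. Over those from 40% to under 50%, the set that held Vps13a, it was 0.0070 and 0.0094. Over those at 55% or more it was -0.018 and -0.035.

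Among the transcripts whose deposited values were most like those of Vps13a over the 40 libraries were Fut9, a fucosyltransferase (Pearson's r = 0.819), Kcnt2, a sodium-activated potassium channel (0.750), the long non-coding RNA Oip5os1 (0.748) and Ppm1k, a mitochondrial phosphatase (0.739). These 4 transcripts had GC contents of 35.0% to 43.2%, all under the median of 49.1%. The Fut9 mean was 9084.52 normalised counts for sham and 9932.13 for HF-HI under saline, and 9924.14 for sham and 10021.9 for HF-HI under memantine. As the likeness was taken with group means left in, a like order of groups follows from the choice, and with group means removed r for Fut9 was 0.753. The nearest transcripts to other members were Myo9a for Vps13b (0.689), Slf2 for Vps13c (0.568), Plin4 for the larger Vps13d row (0.558) and Mapk1ip1l for Atg2b (0.507). Across 6698 transcripts, the correlation with Vps13a was itself related to GC content (r = -0.511, across transcripts, which are not independent): its median was 0.221 for the 350 transcripts under 40% GC and -0.203 for the 1348 at 55% or more.

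For every member transcript the spread between libraries within groups was larger than counting alone would give. From the number of reads alone, the expected coefficient of variation was 1.35% for Vps13a and 3.39% for Atg2a, while the observed values within groups were 4.64% to 4.97% for Vps13a and 7.67% to 11.1% for Atg2a. For Vps13b, counting gave 1.32% and the groups 1.56% to 3.99%, so the memantine HF-HI group, at 1.56%, was close to counting. For Vps13c the values were 1.38% by counting and 2.02% to 3.54% in the groups, and for Atg2b 1.82% and 2.54% to 3.62%. The Vps13d row NM_001276465 had 1.37% by counting and 14.4% to 26.6% in the groups, and NM_001276502 had 2.08% and 25.8% to 75.2%.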

How the data were processed

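Cortical RNA was sequenced in 40 libraries, 10 per group by the treatment label, as stranded, ribosome-depleted total RNA. Per the study's methods, the authors aligned reads to mm10 with STAR, counted them per RefSeq transcript with eXpress and normalised and variance-stabilised the counts with DESeq2. The labels name HISAT2 and StringTie instead, without versions. The values as deposited are log2-like and level off at low counts, with a floor of 10.35766094. The series text gives fewer samples per group than the labels, and the labels were used.

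The transformation was inverted to normalised counts, and all values under 5000 were whole multiples of 1 read within 0.05 reads. The table held 6831 transcripts, the lowest with a mean of 549.2 normalised counts. Size factors were 0.859 to 1.14. A model with 1 term per group was fitted to the deposited values of all transcripts with limma 3.58.1 in R 4.3.3 (trend), with Benjamini-Hochberg adjustment over all transcripts, counting calls at an unadjusted p under 0.05 and an adjusted p under 0.1. Log2 and percent changes, with 95% intervals, come from the same model on log2(count + 1). Single members were compared by two-sided permutation tests of the mean count (100000 resamples, 22 comparisons, unadjusted). Rows of Vps13d were also summed. Lengths and GC content were taken from the GENCODE transcript matched to each RefSeq entry (98.1% matched).

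Named transcripts were all rows of the 6 genes, the 5 transcripts most correlated with Vps13a and the first for each other member, and from each list at most the 2 rising and 2 falling with the smallest unadjusted p in a contrast, of which the text gives a selection. Some items under this rule are not reported here. Members and lists were chosen with earlier results of these data known. The fits were tested on simulated data. Alternatives were other scales, pseudocounts, normalisations, variance priors, filters, covariates, a replicate block and leaving out each library. Protein sequences were not analysed here.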

Additional observations from a re-analysis of the deposited data

Results flagged for a closer look

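Of 32 combinations of member and group, 3 had 1 library standing apart from the other 9 by Dixon's ratio of gap to range at 10 libraries (95% critical value), all in memantine HF-HI. Chance gives about 1 in 20 such groups. Vps13b was lowest in replicate 7, at 5511.6 normalised counts, with the nearest library at 5680.8. The summed Vps13d was highest in the same replicate 7, at 7961.4, with the nearest at 7657.32. Vps13c was highest in replicate 5, at 5598.7, with the nearest at 5371.06, and without that library the Vps13c difference between memantine HF-HI and saline HF-HI had an unadjusted limma p of 0.112 instead of 0.0477. No difference of an impact effect between the drug arms passed a test among the members for which it was tested.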

How the results depend on the processing

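No fitted change of a called member turned direction under any alternative. For saline impact, which is described only, Vps13a alone was under 0.05 in every alternative, and that follows from how it was chosen. The count of members at an unadjusted p under 0.05 is given for the other contrasts, with Vps13a left out except for memantine impact. For memantine impact it was 0, but 1 with library weights, and 0 to 1 leaving out each library (Atg2a without memantine sham replicate 9, p = 0.0378). For memantine sham against saline sham it was 0, but 1 with the GC slope as covariate (Vps13c), and 0 to 1 leaving out each library (Vps13c without saline sham replicates 1, 8 or 10 or memantine sham replicates 3 or 4, p = 0.0238 to 0.0435, and Atg2a without memantine sham replicate 9, p = 0.0484). For memantine HF-HI against saline HF-HI it was 1, but 0 with libraries centred on their median (Vps13c p = 0.0563), and 0 to 1 leaving out each library (Vps13c lost at p = 0.0501 to 0.112 without saline sham replicates 3, 5, 6 or 7, memantine sham replicates 1, 8 or 9, saline HF-HI replicates 2, 3, 4, 5, 8, 9 or 10, or memantine HF-HI replicates 3, 5, 6, 9 or 10). For the interaction it was 0 in the main fit and under every alternative. The causes were not tested. Over all transcripts, 651 were under 0.05 for saline impact and 393 with the striatum covariate, and 315 for memantine impact, 513 with library weights and 525 without memantine sham replicate 9.

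Replicate numbers did not pair the libraries: same-numbered libraries correlated between -0.13 and 0.16 after removing group means, and with the replicate block the Vps13a change under memantine was 0.031 on the deposited scale (p = 0.171). The block changed no member's call. The intervals allow changes under memantine of up to 7.60% in Vps13a and down to -14.2% in Atg2a.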
